A study of Mus musculus with 8 samples.

Results

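Type I interferon stimulated genes were measured in heart tissue of mice with autoimmune myocarditis, 4 hearts after VEGF-C C156S and 4 after PBS. The members were 39 genes chosen by symbol for their known induction by interferon alpha and beta, and 38 of them had values, among 18835 genes with values in all. Oas1a was listed without values. All mice were male BALB/cAJcl animals, 10 weeks old, immunized with cardiac myosin, which sets off an inflammation of the heart muscle. They were injected into the peritoneum from day 7 to day 10, with VEGF-C C156S at 1 µg per day or with PBS, and the hearts were taken in week 3. VEGF-C C156S is a mutant of VEGF-C that signals through VEGFR-3, the receptor of lymphatic endothelium. Hearts that were not immunized, or that received VEGF-C without myocarditis, were not analysed here, so the differences below are between inflamed hearts. The title of the series speaks of lymphatic endothelial cells, but every library is labelled heart, and the cardiomyocyte markers Myh6, Actn2, Ttn, Tnnt2, Actc1, Ryr2 and Tnni3 summed to between 2.36 and 3.21 M normalized reads in PBS and between 3.28 and 3.57 M in VEGF-C.

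Type I interferons are cytokines that nucleic acid sensors induce and that act back on the producing cell and its neighbours. Their receptor, IFNAR1 with IFNAR2, activates the kinases JAK1 and TYK2, which phosphorylate STAT proteins. STAT2 and IRF9 are part of the complex ISGF3, which binds the interferon-stimulated response element in the promoters of its target genes. The targets include the sensors and signalling proteins themselves, so that the response feeds back on itself, and antiviral effectors that degrade RNA, block translation or tag proteins. Many of them also respond to interferon gamma.

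The interferon stimulated genes were mostly lower in hearts of VEGF-C-treated mice, with a wide range of sizes. The log2 difference, VEGF-C minus PBS, was below 0 in 35 of 38 members, where 49.8% of all genes were below 0. Its median was -0.40 over the members and 0.00 over all genes, and it ran from -1.57 (Shfl) to 0.13 (Cmpk2). In limma, with Benjamini-Hochberg adjustment over all genes and a threshold of 0.05, 11 members fell and 0 rose. The share of all genes that passed was 8.61% as lower and 7.05% as higher. At an unadjusted p under 0.05, 22 members were lower, against 16.3% of all genes. All 4 VEGF-C libraries lay below all 4 PBS libraries in 12 members, against 11.6% of all genes, and above them in 0, against 11.5%. The 12 were the members that fell apart from Mx1, with Xaf1 and Usp18. In the plot of the differences the 5 members lowest on the scale all passed. Oas3, Zbp1, Isg15 and Ifi44, which come next, did not pass. Their SEs ran from 0.19 (Ifi44) to 0.40 (Oas3), and that of Mx1, which passed, was 0.28 (log2).

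**Figure D1:**
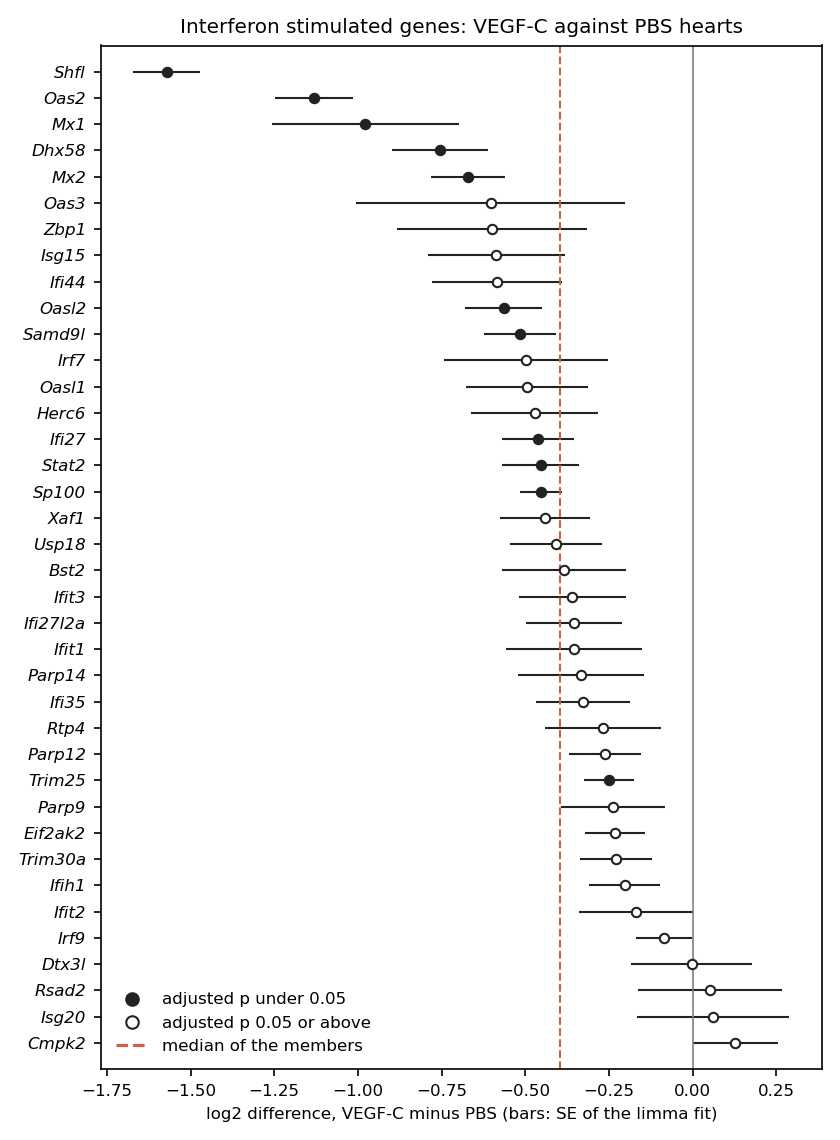
Log2 difference between VEGF-C and PBS hearts (x axis, log2 of normalized reads plus 4) for the 38 members with values (y axis), with the standard error of the limma fit as bars. Filled points are the 11 members with an adjusted p under 0.05, all below 0, and the dashed line is the median of the members, -0.40.

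These calls differed in how firmly they stood. Shfl, Oas2, Sp100, Mx2, Dhx58, Oasl2 and Samd9l passed without any 1 library and under every other setting that was run. Ifi27, Stat2, Mx1 and Trim25 each lost their call without at least 1 library, and without VEGF-C replicate 3 the count of members that fell was 7, against 5.8% of all genes. Without PBS replicate 1 it was 9, against 8.7% of all genes, and the median of the members was -0.29. In that setting the groups did not overlap in 12 members, against 15.0% of all genes. Without PBS replicate 2, 16 members fell, against 6.65% of all genes. With library totals in place of the deposited scaling factors, the median of all genes moved to -0.19 and that of the members to -0.59. In that setting 25 members fell, against 19.0% of all genes. By the adjusted p of the authors' deposited table, 17 members were lower and 0 higher, against 11.4% and 10.2% of all genes.

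Read totals over the genes with values were between 53.7 and 76.8 M per library. The members were well covered, with at least 151 reads in every library. Levels are given as normalized reads, that is, reads divided by the library's scaling factor. Replicate numbers are those of the columns in the deposited table, which tie to no animal number in the labels. The labels name each library by a number of its own and do not state how the hearts were sampled, so the p-values measure the spread between these libraries. In bulk tissue, fewer cells that express a gene and less RNA per cell cannot be told apart.

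Among the genes that sense nucleic acid, Dhx58 fell and Ifih1 and Zbp1 did not pass. Dhx58 (ENSMUSG00000017830) encodes LGP2, a helicase that modulates RNA sensing by RIG-I and MDA5. It had 726, 493, 641 and 546 normalized reads in PBS replicates 1 to 4 and 358, 382, 379 and 293 in VEGF-C replicates 1 to 4. The lowest PBS heart was above the highest VEGF-C heart, and the log2 difference was -0.75 ± 0.14 (SE; limma adjusted p = 0.00821). Ifih1, which encodes the sensor MDA5 itself, had 1373 ± 191 and 1183 ± 45.5 normalized reads in PBS and VEGF-C (SD, n = 4), a log2 difference of -0.20 ± 0.10. Zbp1, a sensor of Z-form nucleic acid that can trigger necroptosis, had one of the widest spreads. Its PBS values were 2749.5, 1116, 2049 and 1410.1 and its VEGF-C values 1565, 1389, 929 and 828 normalized reads. The lowest PBS heart was below 2 of the VEGF-C hearts, and the log2 difference of -0.60 ± 0.28 did not pass (limma adjusted p = 0.173).

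Of the signalling and feedback genes Stat2 fell, while Irf9, its partner in ISGF3, did not pass. Stat2 (ENSMUSG00000040033) had 5364, 3759, 3918 and 4958 normalized reads in PBS and 3144, 3255, 3093 and 3507 in VEGF-C. The groups did not overlap, and the difference was -0.45 ± 0.12 (SE, log2; limma adjusted p = 0.0263). Leaving out PBS replicate 4, or any of VEGF-C replicates 1 to 3, ended the call, with a limma adjusted p of up to 0.0713, and so did a fit without a mean-variance trend (0.0574). Irf9 had 2911 ± 299.8 normalized reads in PBS and 2735 ± 131 in VEGF-C (SD, n = 4), and its difference of -0.09 ± 0.08 had a 95% interval from -0.27 to 0.10. Irf7, the factor that amplifies interferon alpha production, ranged from 2635 to 5839.5 normalized reads within PBS and from 2302 to 3694 within VEGF-C. The groups overlapped, and its difference of -0.50 ± 0.25 did not pass (limma adjusted p = 0.191). Usp18, the protease that removes ISG15 and damps signalling at IFNAR2, had between 514 and 692 normalized reads in PBS and between 374 and 478 in VEGF-C. Its groups did not overlap, but its difference of -0.41 ± 0.14 did not pass (limma adjusted p = 0.0693).

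Of the ISG15 system and the ubiquitin ligases, only Trim25 passed, with the smallest difference among the 11 members that did. ISG15 is a ubiquitin-like protein that is attached to other proteins, in the mouse with HERC6 as the main ligase, and TRIM25 is a ubiquitin ligase that acts on RNA sensing. Isg15 had 1529, 777, 1079 and 1108 normalized reads in PBS and 727, 979, 634 and 612 in VEGF-C. PBS replicate 2 lay within the VEGF-C range, and the log2 difference of -0.59 ± 0.20 did not pass (limma adjusted p = 0.077). Herc6 had a difference of -0.47 ± 0.19 and Trim30a one of -0.23 ± 0.11, and neither passed. Trim30a belongs to a family of near copies, so that its reads may be shared. Trim25 (ENSMUSG00000000275) fell from 4966 ± 283 to 4178 ± 278 normalized reads (SD, n = 4), a difference of -0.25 ± 0.07 (limma adjusted p = 0.0461). Its call held only without PBS replicate 2 and was lost without any other 1 library (limma adjusted p up to 0.127) and with limma-voom (0.0506).

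In the OAS family, many of whose members make the antiviral messenger 2-5A, Oas2 and Oasl2 fell. Oas2 (ENSMUSG00000032690) had 1929, 1709.9, 1679 and 2246 normalized reads in PBS and 906, 964, 813 and 753 in VEGF-C. The VEGF-C mean was 45.4% of the PBS mean, and the difference was -1.13 ± 0.12 (SE, log2; limma adjusted p = 0.000389). Its neighbour Oas3 had 805, 235, 772 and 430.3 normalized reads in PBS and 472, 462, 264 and 201 in VEGF-C. The lowest PBS heart was below 3 of the VEGF-C hearts, and the difference of -0.60 ± 0.40 did not pass (limma adjusted p = 0.328). Whether the differences of Oas2 and Oas3 differ from each other was not tested. Oasl2 (ENSMUSG00000029561) fell by 0.56 ± 0.11 on the log2 scale, from 3068 ± 343 to 2079 ± 309.9 normalized reads (SD, n = 4; limma adjusted p = 0.0106). Oasl1, its neighbour on the chromosome with 1 gene between them, had a difference of -0.50 ± 0.18 that did not pass (limma adjusted p = 0.09).

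No member of the IFIT family passed. IFIT proteins bind viral RNA or the translation factor eIF3 and are among the genes most strongly induced by interferon. Ifit1, Ifit2 and Ifit3 had differences of -0.35 ± 0.20, -0.17 ± 0.17 and -0.36 ± 0.16 (SE, log2). In each of them PBS replicate 1 was the highest of the 8 libraries, with 1583, 2568 and 2269.6 normalized reads, and PBS replicate 2 lay within the VEGF-C range or below it. Without PBS replicate 1 the difference of Ifit2 was 0.024. Ifit3 and Ifit1 have closely related copies beside them, Ifit3b and Ifit1bl2 among them, and their values are uncertain to the extent that reads were split between the copies.

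Both MX GTPases fell. These dynamin-like proteins block virus replication. In most inbred mouse strains both genes carry mutations that abolish the antiviral protein. Mx2 (ENSMUSG00000023341) had 456, 406, 405 and 434 normalized reads in PBS and 256, 299, 244 and 265 in VEGF-C. The spread within each group was small beside the gap, and the difference was -0.67 ± 0.11 (SE, log2; limma adjusted p = 0.0045). Mx1 (ENSMUSG00000000386) had 548, 219, 594 and 344 normalized reads in PBS and 227, 201, 206 and 167 in VEGF-C. PBS replicate 2 was below VEGF-C replicate 1, so the groups overlapped, and the difference was -0.98 ± 0.28 (limma adjusted p = 0.0407). This call held without PBS replicate 2 and was lost without any other 1 library (limma adjusted p up to 0.101) and with limma-voom (0.0652).

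**Figure D2:**
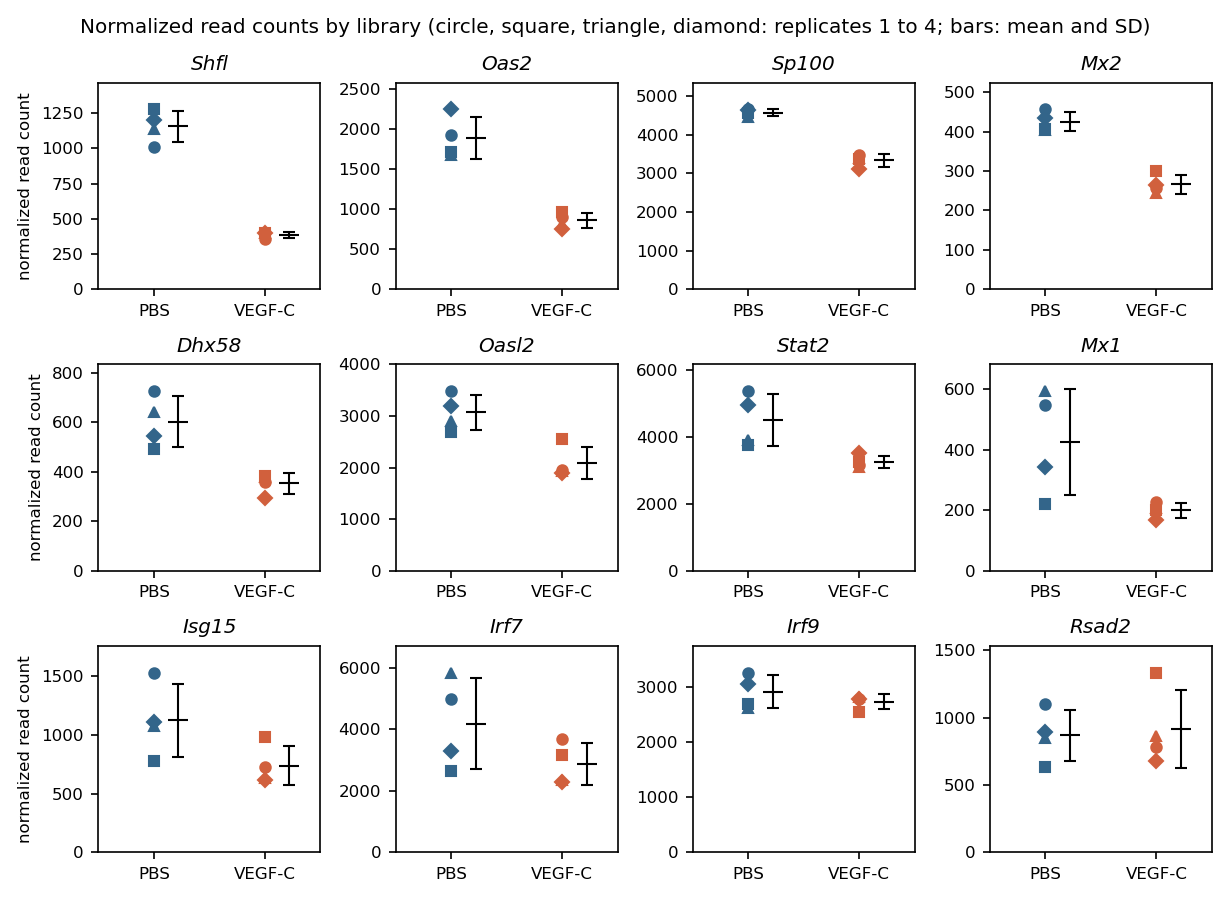
Normalized read counts (y axis, linear from 0) of 12 members in each PBS and VEGF-C library, with the marker shape giving the replicate and the bar the mean and SD of 4 libraries. Shfl, Oas2, Sp100, Mx2, Dhx58, Oasl2 and Stat2 show no overlap between the groups, while in Isg15, Irf7, Irf9 and Rsad2 the groups overlap.

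The genes that act on RNA and nucleotides held both the largest decrease and all 3 members with a positive difference. Shfl (ENSMUSG00000038884) encodes shiftless, an inhibitor of programmed ribosomal frameshifting. It had 1013, 1277, 1136 and 1202 normalized reads in PBS and 354, 396, 397 and 396 in VEGF-C. The VEGF-C mean was 33.3% of the PBS mean, and the log2 difference was -1.57 ± 0.10 (SE; limma adjusted p = 2.99e-05). Shfl shares 265 exonic bases, 7.76% of its exon length in the GENCODE M21 annotation, with Angptl6 on the other strand, and whether reads were counted by strand is not known here. Angptl6 had 161 and 151 normalized reads in PBS and VEGF-C, a difference of -0.15 ± 0.21. Samd9l (ENSMUSG00000047735), an inhibitor of translation, fell by 0.52 ± 0.11 on the log2 scale (limma adjusted p = 0.0119), from 2239 ± 276 to 1561 ± 146 normalized reads (SD, n = 4). Eif2ak2, the kinase PKR that halts translation on double-stranded RNA, had a difference of -0.23 ± 0.09 and did not pass (limma adjusted p = 0.104).

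Rsad2, Cmpk2 and Isg20 were the 3 with a positive difference, and none of them passed. Rsad2 encodes viperin, which makes a chain-terminating nucleotide, Cmpk2 a nucleotide kinase that supplies its substrate, and Isg20 an exonuclease. Rsad2 had 1098, 635, 848 and 889 normalized reads in PBS and 785, 1332, 862 and 674 in VEGF-C, a difference of 0.05 ± 0.21 with a 95% interval from -0.42 to 0.53. Isg20 had between 563 and 624 normalized reads in the PBS libraries, against 621, 1049.6, 542 and 418 in VEGF-C, a difference of 0.06 ± 0.23. VEGF-C replicate 2 was the highest library in both genes, and without it their differences were -0.15 and -0.19. Cmpk2 had a difference of 0.13 ± 0.13, with an interval from -0.16 to 0.41. With library totals the 3 differences were below 0, at -0.14 for Rsad2, -0.13 for Isg20 and -0.063 for Cmpk2, and none passed.

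The PARP genes and Dtx3l did not pass. PARP9 and the ubiquitin ligase DTX3L form a complex that enhances interferon signalling, and their genes lie head to head and share 458 exonic bases on opposite strands. Parp9 had 3395 ± 949 and 2802 ± 67 normalized reads in PBS and VEGF-C (SD, n = 4), and Dtx3l had 2628 ± 766 and 2549 ± 243. Their differences were -0.24 ± 0.16 and 0.00 ± 0.18 (SE, log2), and that of Dtx3l was 0.16 without PBS replicate 1. Parp14 had 8988 normalized reads in PBS replicate 1, against 4369.6 to 5673 in the other PBS hearts and 4238 to 5154 in VEGF-C. The other PBS values overlapped those of VEGF-C, and its difference of -0.33 ± 0.19 did not pass (limma adjusted p = 0.25). Parp12 had a difference of -0.26 ± 0.11 (limma adjusted p = 0.121).

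Of the membrane, mitochondrial and cell death genes Ifi27 fell, and of the remaining genes Sp100. Ifi27 (ENSMUSG00000064215), a mitochondrial protein linked to apoptosis, had 4058, 3791, 4575 and 4480.0 normalized reads in PBS and 3745, 3003, 2795 and 2785 in VEGF-C. VEGF-C replicate 1 lay just under the lowest PBS value, and the difference was -0.46 ± 0.11 (SE, log2; limma adjusted p = 0.018), which did not pass without VEGF-C replicate 3 (0.0561). Sp100 (ENSMUSG00000026222) encodes a component of PML nuclear bodies and had 4659, 4555, 4464 and 4633 normalized reads in PBS and 3488, 3383, 3409 and 3102 in VEGF-C. The PBS values varied little, with an SD of 87.8 on a mean of 4578, and the difference was -0.45 ± 0.06 (limma adjusted p = 0.002). Xaf1, an antagonist of the inhibitor of apoptosis XIAP, did not overlap between the groups and missed the threshold, with a difference of -0.44 ± 0.14 (limma adjusted p = 0.0514). Bst2, the tetherin that holds budding virus at the membrane, had a difference of -0.38 ± 0.18, and Ifi44 one of -0.58 ± 0.19. Ifi27l2a, Rtp4 and Ifi35 had differences of -0.35, -0.27 and -0.33 (log2) and did not pass either.

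Per kilobase of exon the members differed over a wide range in level. Ifi27l2a was highest, with a mean over the 8 libraries of 9139 normalized reads per kb, followed by Bst2 with 3794, Ifi27 with 2491, Isg15 with 1231 and Ifi35 with 1009. Herc6 (57.7), Oas3 (64.4), Mx1 (82.8) and Mx2 (95.6 normalized reads per kb) were lowest. The members that passed were spread over this order, from Mx1 to Ifi27. Exon lengths came from GENCODE M21, matched on the gene ID.

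The members shared a pattern across hearts within each group. PBS replicate 1 was the highest PBS library in 28 of 38 members, where it was so in 28.8% of all genes. PBS replicate 2 was the lowest in 28, where it was so in 23.4% of all genes. Within VEGF-C, replicate 4 was the lowest library in 22 members, against 25.9% of all genes. VEGF-C replicates 1 and 2 were the highest in 15 and 17, against 23.9% and 26.3% of all genes. The median deviation of the members from their own means was 0.50, -0.13, 0.19 and 0.21 in PBS replicates 1 to 4 and -0.09, -0.08, -0.28 and -0.35 in VEGF-C replicates 1 to 4 (log2). PBS replicate 2 thus lay below VEGF-C replicates 1 and 2, and the groups overlapped in this median. The SD between hearts was larger in PBS than in VEGF-C in 30 of 38 members, against 54.3% of all genes, with medians of 0.25 and 0.17 (log2) over the members and 0.19 and 0.18 over all genes.

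**Figure D3:**
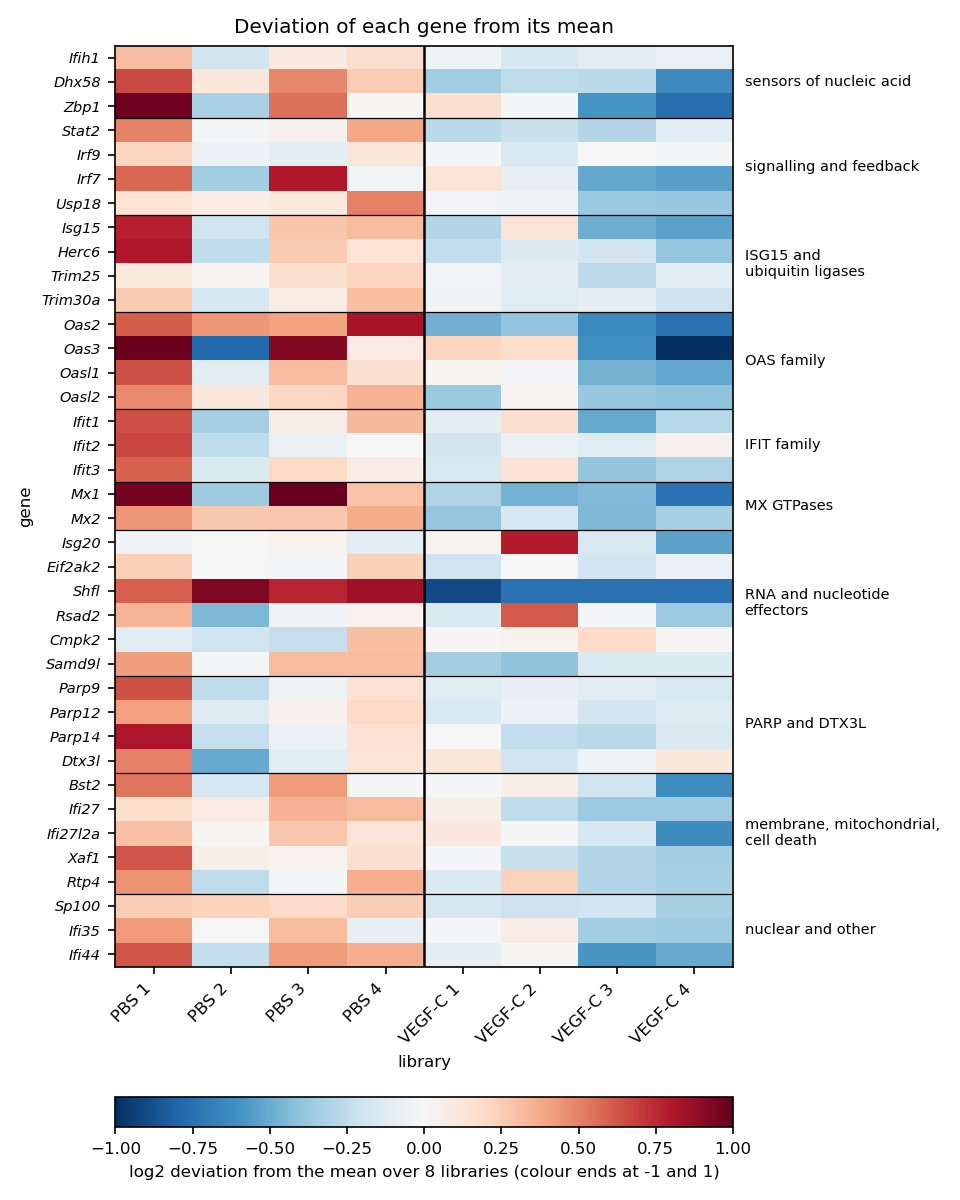
Log2 deviation of each member (rows, by role) from its own mean over the 8 libraries (columns), from blue below the mean to red above it. PBS 1 is red in most rows, PBS 2 is pale or blue in most rows, and Shfl, Oas2, Mx2 and Sp100 are red in all 4 PBS libraries.

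Shfl did not follow this order of hearts. PBS replicate 1, highest in most members, was the lowest PBS library for Shfl, and PBS replicate 2 was the highest. The correlation with the median profile of the other members over the 8 libraries was 0.65 for Shfl, against 0.97 for Ifi44, Isg15 and Oasl1 (Pearson's r, a description over libraries that share the treatment). It was 0.80 for Oas2, and lowest for Dtx3l (0.50), Rsad2 (0.46), Isg20 (0.17) and Cmpk2 (-0.23). The genes outside the list with the highest correlation were Hcar2 (0.99), Slc2a6 (0.99), Mlkl (0.98), Kynu (0.97) and Irak2 (0.97). Of these Slc2a6 passed as lower, with a difference of -1.09 ± 0.32 (limma adjusted p = 0.0456). Mlkl is the effector of necroptosis, which Zbp1 can trigger, and had 609 ± 63.4 and 497 ± 34.6 normalized reads in PBS and VEGF-C (SD, n = 4).

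The promoters of the members show how far the response element is shared. Promoter sequences from RefSeq (GRCm38.p6; 250 bases before to 50 after a transcription start) were found for 27 of the 39 members, with 33 starts in all. There was no entry for Dhx58, Ifi27, Ifi27l2a, Mx1, Mx2, Oas2, Parp14, Parp9, Rtp4, Shfl, Usp18 and Zbp1. The core of the interferon-stimulated response element was searched on both strands as GAAA, any 2 bases and GAAA again, and overlapping matches were allowed. It was found in 12 of the 33 promoters, or 36.4%, and in 3.44% of 32851 promoters of the same length. Of the members with values and a promoter sequence, 10 had a match and a median log2 difference of -0.36. The other 16 had none and a median of -0.38. Of the 10, 1 fell, and of the 16, 4 fell, against 8.61% of all genes. Dhx58, Ifi27, Mx1, Mx2, Oas2 and Shfl also fell but had no promoter sequence, so they are in neither set. Most of the members that fell are thus left out of this comparison. Whether these sets differ was not tested. The gamma-activated site, searched as TTCNNNGAA, was found in 6 of the 33 promoters (18.2%) and in 8.30% of all promoters. The sequences below are shown because they set a member that fell with a match (Stat2) and one that fell without (Sp100, the first of 2 starts) beside 3 with a match that did not pass. Capitals mark the matches to the response element on either strand.
Stat2, chr10:128270248-128270547, plus strand: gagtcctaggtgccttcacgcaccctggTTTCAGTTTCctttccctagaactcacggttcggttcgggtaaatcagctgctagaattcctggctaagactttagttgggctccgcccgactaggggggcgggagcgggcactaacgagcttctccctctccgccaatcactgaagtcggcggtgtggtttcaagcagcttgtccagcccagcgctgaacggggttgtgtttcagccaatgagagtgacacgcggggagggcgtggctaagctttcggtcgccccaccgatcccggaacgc
Isg15, chr4:156200769-156201068, minus strand: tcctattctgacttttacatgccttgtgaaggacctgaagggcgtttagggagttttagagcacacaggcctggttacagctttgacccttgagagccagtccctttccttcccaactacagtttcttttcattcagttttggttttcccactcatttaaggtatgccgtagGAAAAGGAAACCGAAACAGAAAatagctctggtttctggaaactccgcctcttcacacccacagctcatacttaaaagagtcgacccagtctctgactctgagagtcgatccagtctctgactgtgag
Ifit3, chr19:34583279-34583578, plus strand: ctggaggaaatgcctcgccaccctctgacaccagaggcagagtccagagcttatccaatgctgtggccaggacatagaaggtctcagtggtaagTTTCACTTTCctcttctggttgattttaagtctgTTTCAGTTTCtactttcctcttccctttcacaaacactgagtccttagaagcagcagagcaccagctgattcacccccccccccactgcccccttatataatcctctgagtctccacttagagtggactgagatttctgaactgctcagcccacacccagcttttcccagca
Rsad2, chr12:26456403-26456702, minus strand: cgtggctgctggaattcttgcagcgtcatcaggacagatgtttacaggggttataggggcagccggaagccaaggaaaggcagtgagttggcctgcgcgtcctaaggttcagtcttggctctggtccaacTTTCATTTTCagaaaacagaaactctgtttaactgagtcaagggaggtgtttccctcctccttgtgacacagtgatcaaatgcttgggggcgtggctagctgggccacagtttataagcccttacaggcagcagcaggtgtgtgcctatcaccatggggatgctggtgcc
Sp100, chr1:85649738-85650037, plus strand: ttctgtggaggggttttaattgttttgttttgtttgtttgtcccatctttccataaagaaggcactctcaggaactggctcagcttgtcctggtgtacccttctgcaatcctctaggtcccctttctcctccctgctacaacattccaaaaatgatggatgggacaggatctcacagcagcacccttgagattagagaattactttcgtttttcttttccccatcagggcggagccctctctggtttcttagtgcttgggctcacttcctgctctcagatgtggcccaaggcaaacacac

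In Isg15 the 3 matches overlap, at positions -78, -72 and -66 from the start, and in Ifit3 the 2 matches stand apart, at -156 and -122. Stat2 has its match farther off, at -222, and Rsad2 at -120. A match is only a run of letters and no proof of binding, and its absence says nothing of the factor.

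Several members lie next to each other on the chromosomes. On the RefSeq assembly GRCm38.p6, 17 of the 39 members had another member within 200 kb, in 7 groups. These were Rsad2 with Cmpk2, Ifi27l2a with Ifi27, Parp14 with Dtx3l and Parp9, Mx1 with Mx2, the 3 Ifit genes, Oasl2 with Oasl1, and Oas2 with Oas3 and Oas1a. Rsad2 and Cmpk2, with 0 genes between them, were 2 of the 3 members with a positive difference. In the group of Mx1 and Mx2 both members fell, while in those of Ifi27, Oasl2 and Oas2 a called member lay beside one that did not pass.

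Upstream of the members, 5 genes of induction fell, while neither receptor subunit passed. None of the 20 interferon ligand genes on the list, Ifnb1 and Ifna4 among them, had values. In the list of sensing and induction 5 of 16 measured genes fell and 1 rose, against 8.61% and 7.05% of all genes. Ikbke, a kinase that activates IRF3, had 1958, 1647, 2031 and 1733 normalized reads in PBS and 844, 731, 722 and 871 in VEGF-C. This was a difference of -1.21 ± 0.10 (SE, log2; limma adjusted p = 0.000139), with every VEGF-C heart under every PBS heart. Irf3, the factor that starts interferon beta transcription, fell by 0.54 ± 0.08, Unc93b1, a chaperone of endosomal Toll-like receptors, by 0.47 ± 0.09, Irf5 by 0.49 ± 0.11 and the kinase Tbk1 by 0.36 ± 0.09. Mavs, the mitochondrial adaptor of RIG-I and MDA5, rose by 0.36 ± 0.11 (limma adjusted p = 0.047). For Tbk1 the limma adjusted p was up to 0.0687 without 1 of VEGF-C replicates 1 to 3. Mavs held only without PBS replicate 3 or 4 (up to 0.1), and did not pass with library totals, upper-quartile or TMM factors (0.231, 0.0753 and 0.0513).

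Of 5 genes of the receptor and its proximal signalling 1 fell and 0 rose, against 8.61% and 7.05% of all genes. Tyk2, a kinase bound to IFNAR1, had 3092 ± 228 normalized reads in PBS and 2141 ± 178 in VEGF-C (SD, n = 4), a difference of -0.53 ± 0.08 (limma adjusted p = 0.00375). Ifnar1 did not overlap between the groups, with 3943 ± 64 and 3427 ± 206 normalized reads, but missed the threshold at -0.20 ± 0.07 (limma adjusted p = 0.0619). It passed with library totals and upper-quartile factors (limma adjusted p = 0.0032 and 0.0215). Ifnar2 had a difference of -0.07 ± 0.10 and did not pass.

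Among 11 measured negative regulators 2 fell and 1 rose, against 8.61% and 7.05% of all genes, so that with so few genes the counts lie near that share. Adar, which edits double-stranded RNA so that it is not sensed, fell by 0.35 ± 0.09 on the log2 scale (limma adjusted p = 0.0341). Ptpn6, the leukocyte phosphatase SHP-1, fell by 0.44 ± 0.12 (0.0367), and Ptpn11, its widely expressed relative SHP-2, rose by 0.55 ± 0.09 (0.00551). Adar held only without PBS replicate 1 or 3 and Ptpn6 only without PBS replicate 1, 2 or 4 (limma adjusted p up to 0.0833 and 0.0855).

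Further interferon stimulated genes, a list of 62 of which 60 had values, showed the same sign more often than not. Like the members, this list was chosen with earlier results of these data known. Of the 60, 19 fell and 0 rose, against 8.61% and 7.05% of all genes, and the median log2 difference was -0.24. The count was 16 without PBS replicate 1, against 8.7% of all genes, and 12 without PBS replicate 3, against 6.23%. It was 11 without VEGF-C replicate 3 or 4, against 5.8% and 6.7% of all genes. Slfn4, a schlafen gene of myeloid cells, had 2140.2, 1179.7, 2181 and 1522 normalized reads in PBS and 254, 522, 202 and 224 in VEGF-C. No VEGF-C heart reached the lowest PBS heart, and the difference was -2.59 ± 0.29 (SE, log2; limma adjusted p = 0.000691). Ddx60, a helicase of RNA sensing, fell by 1.14 ± 0.17, and Sp110, a nuclear body protein related to Sp100, by 1.03 ± 0.12. Uba7, which activates ISG15 for conjugation, fell by 1.02 ± 0.15, the DNA-binding Mndal by 0.81 ± 0.09 and Helz2 by 0.51 ± 0.08. Ube2l6, which carries ISG15 after Uba7 and was chosen after its values were seen, had a difference of 0.01 ± 0.21. Cxcl10, a chemokine of both interferon types, had 835, 143, 294 and 493 normalized reads in PBS and 219, 431, 178 and 228 in VEGF-C, and its difference of -0.54 ± 0.47 did not pass.

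In the interferon gamma axis PBS replicate 1 stood high. Of 15 genes 1 fell and 0 rose, a share near the 8.61% and 7.05% of all genes, with a median log2 difference of -0.42. That 1 gene was Nlrc5, the activator of MHC class I genes, with 4261, 1844, 2594 and 2794 normalized reads in PBS and 1391, 1393, 1309.7 and 1656 in VEGF-C (difference -0.94 ± 0.21, SE; limma adjusted p = 0.015). Irf1, which both interferon types induce, had a difference of -0.62 ± 0.22 that did not pass (limma adjusted p = 0.0801), although the groups did not overlap. Gbp2, a guanylate-binding protein, had 10745 normalized reads in PBS replicate 1, against 3411 to 5098 in the other PBS hearts and 3518 to 4893 in VEGF-C. Ifng itself was read at between 4.05 and 31.7 normalized reads per library. The median deviation of this list was 1.10 in PBS replicate 1 and between -0.41 and 0.13 in the other 7 libraries (log2).

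Markers of leukocytes moved with the members in part. Of all genes 8.61% fell and 7.05% rose, and in lists as short as these a count of 0 or 1 lies near that share. The summed level of the pan-leukocyte list (Ptprc, Coro1a, Laptm5, Cd53 and Cd52) was between 23825 and 36412 normalized reads in PBS and between 22126 and 28140 in VEGF-C. Of the 5 genes 2 fell, against 8.61% of all genes, and 4 had a negative difference, with a median of -0.53 (log2). Laptm5, the most abundant of them, had a difference of 0.13 ± 0.15. Coro1a fell by 0.63 ± 0.14 (limma adjusted p = 0.0173), a call that held without 7 of the 8 libraries. Ptprc, the leukocyte antigen CD45, had 4399.9 ± 1112 and 2732 ± 333 normalized reads (SD, n = 4; difference -0.66 ± 0.16, limma adjusted p = 0.0229), with the highest value in PBS replicate 1. Leaving out PBS replicate 3, or VEGF-C replicate 2 or 3, ended this call, at a limma adjusted p of up to 0.0575. Of the macrophage list 0 of 7 passed, with sums between 56718 and 67422 in PBS and between 53281 and 66258 in VEGF-C. Its differences were negative in 4 genes and positive in 3, with a median of -0.03. Adgre1 had a difference of 0.14 ± 0.12. B cell markers fell in 4 of 5, against 8.61% of all genes, with a median log2 difference of -1.44. Their sums were between 2511 and 4213 in PBS and between 693 and 1707 in VEGF-C. In the monocyte list 1 of 5 fell (Ly6c2, -0.39 ± 0.11, a call that held without 2 of the 8 libraries only). It was 1 of 5 in the neutrophil list. In the lists of T cells, NK cells and conventional dendritic cells 0 of 6, 0 of 4 and 0 of 5 passed. All 5 differences were negative in the monocyte, neutrophil and conventional dendritic cell lists, with medians of -0.39, -0.67 and -0.25 (log2). In the NK cell list 3 of 4 were negative (median -0.26), and in the T cell list 2 of 6 (median 0.02). Siglech, a defining marker of plasmacytoid dendritic cells, the main source of interferon alpha, had 136 ± 24.6 and 115 ± 47.5 normalized reads (difference -0.28 ± 0.26, limma adjusted p = 0.488). Of the 6 genes on that list 4 had a positive difference, with a median of 0.11, and 1 rose. That was Cox6a2 (0.44 ± 0.12, limma adjusted p = 0.03), which muscle also expresses. It had means of 66602 and 90738 normalized reads in PBS and VEGF-C, far above those of Siglech. Its call held without 3 of the 8 libraries only, and library totals in place of the deposited factors ended it, at a limma adjusted p of 0.14. Cardiomyocyte markers mostly had the opposite sign to the members. Their sums did not overlap between the groups, 6 of 7 had a positive difference, with a median of 0.42, and 1 rose, Actn2 (0.61 ± 0.12, limma adjusted p = 0.0101). With library totals 5 of the 7 differences were positive. The part of these cell types in the differences of the members was not tested.

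**Figure D4:**
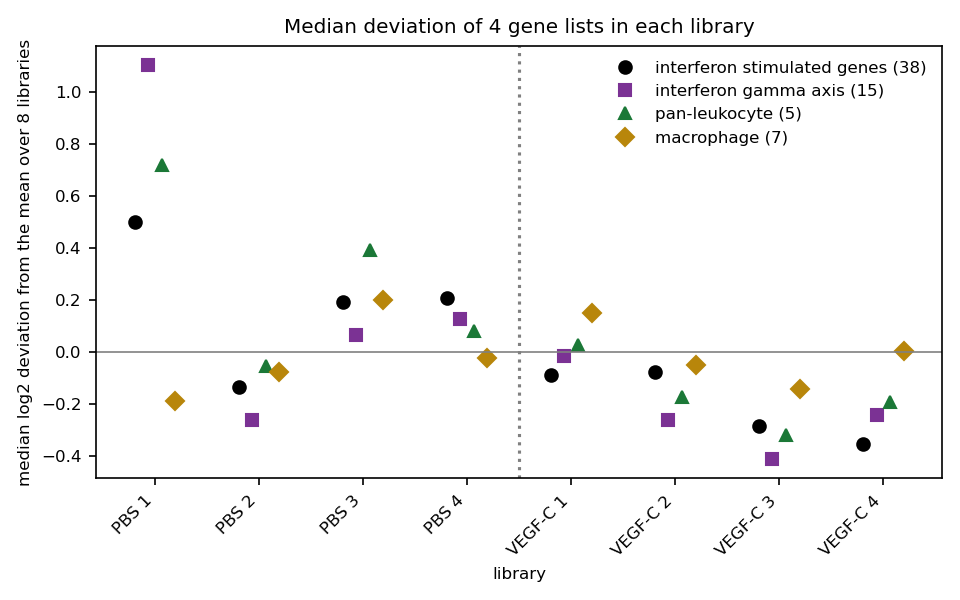
Median log2 deviation from the mean over 8 libraries (y axis) of the 38 members, 15 genes of the interferon gamma axis, 5 pan-leukocyte markers and 7 macrophage markers in each library (x axis). The members, the interferon gamma axis and the pan-leukocyte markers are highest in PBS 1 (0.50, 1.10 and 0.72), where the macrophage markers are lowest (-0.19).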

How the data were processed

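RNA was sequenced from 8 hearts, 4 per group. The submitters' processing notes name Trim Galore 0.6.10 and STAR 2.7.10a for the reads, featureCounts and Subread 2.0.1 for counting, DESeq2 1.38.3, and GRCm39. The sources used here do not give the settings, the strand of counting or the annotation. The table the authors deposited lists 56941 genes, with log2 values for 18835. Each value is log2(x + 4), x being reads divided by 1 factor per library: 100% of values gave whole reads within 0.01. The authors' deposited log2 fold changes and adjusted p-values stand in the same table.

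Treatment was taken from the labels and tested with limma 3.58.1 (R 4.3.3) with a mean-variance trend on the log2 values of all genes. The test was checked on simulated counts with the same variance model for every gene and no pattern shared between genes. Patterns that genes share, as in PBS replicate 1, are not covered by that check. p-values are two-sided, Benjamini-Hochberg adjusted over all genes, at a threshold of 0.05. Alternatives were other scalings, offsets, a filter, variance models and leaving out each library.

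Members and lists were chosen with earlier results of these data known. Members were named where they passed, were the most abundant of their role, or had the largest differences or the highest or lowest adjusted p among the rest; up to 6 passing genes were named per pathway list, and 14 genes were fixed by name, not all of which are reported here.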

Additional observations from a re-analysis of the deposited data

Results flagged for a closer look

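In 8 of the 85 genes examined, the members and the other genes named, 1 library of a group stood apart from the other 3: its gap to the nearest made up nearly all of the group's range, past Dixon's critical value. Chance alone gives such a gap in about 1 group in 20, and 170 groups were examined. Shfl had 354 normalized reads in VEGF-C replicate 1, against 396 to 397 in the other VEGF-C libraries. Oasl2 had 2543 in VEGF-C replicate 2, against 1903 to 1944. Usp18 had 692 in PBS replicate 4, against 514 to 534. Irf9 had 2538 in VEGF-C replicate 2, against 2791 to 2818. Cmpk2 had 711 in VEGF-C replicate 3, against 627 to 639. Tbk1 had 2527 in PBS replicate 1, against 2052 to 2126. Actn2 had 108166 in PBS replicate 3, against 120017 to 121601. Laptm5 had 14562 in VEGF-C replicate 1, against 10846 to 11017. The calls of Shfl, Oasl2 and Actn2 held without any 1 library.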

How the results depend on the processing

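The median log2 difference of the members was below 0 in every setting run, from -0.59 with library totals to -0.29 without PBS replicate 1. The number of members that fell was 11 by limma, against 8.61% of all genes. It was 25 with library totals and 17 in the authors' deposited table, against 19.0% and 11.4% of all genes. With limma-voom 9 fell and without a mean-variance trend 8, against 8.02% and 8.08%. Between 7 and 16 fell when 1 library was left out, against between 5.8% and 8.7% of all genes. In none of these settings did a member rise. The number whose groups did not overlap was 12, against 11.6% of all genes. Without PBS replicate 1, a check added after the data were seen, it was also 12, against 15.0% of all genes. Of further interferon stimulated genes 19 fell, against 8.61% of all genes, and 12 without a mean-variance trend, against 8.08%. Between 11 and 20 of them fell when 1 library was left out, against between 5.8% and 8.7% of all genes. Over all genes 1621 were lower and 1328 higher. With library totals these were 3572 and 243, and 797 were higher both with upper-quartile factors and without a trend. When 1 library was left out, between 1684 and 2906 of all genes passed, between 1093 and 1638 as lower and between 591 and 1268 as higher.

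Some differences near 0 changed sign. With library totals these were Cmpk2 (-0.063), Isg20 (-0.13), Rsad2 (-0.14) and Adgre1 (-0.055), and with upper-quartile factors Rsad2 (-0.0034). With limma-voom quality weights they were Dtx3l (0.031) and Ifng (0.087). When 1 library was left out the values ran from -0.28 to 0.024 for Ifit2, -0.19 to 0.25 for Isg20, -0.15 to 0.18 for Rsad2, -0.17 to 0.16 for Dtx3l, -0.14 to 0.016 for Ifnar2 and -0.70 to 0.018 for Ifng. The cause was not tested. No paired analysis was possible because the labels give no number shared between the groups. With 4 libraries a group, differences of members that vary as widely as Oas3 are not resolved.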
